A study of Mus musculus with 8 samples.

Results

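Cst9, Tesc, Spata21, Glb1l3 and 4930486L24Rik were the genes that were at least 2-fold lower in SCSKO than in Shp2f/f testes at both D3 and 1W. They were chosen on those differences, and they were 5 of 18194 genes, or 0.0275% of all genes measured. Gene expression had been profiled on 8 Affymetrix arrays of whole testes, 1 for each genotype and age. The ages were fetal day 16.5, written E16.5, and postnatal day 3 (D3), week 1 (1W) and week 2 (2W). Shp2f/f mice carried floxed alleles of Shp2, a phosphatase that passes signals from receptors to ERK, and no Cre. SCSKO mice carried the same floxed alleles together with Amh-Cre, a transgene in which the promoter of the Sertoli hormone gene Amh drives Cre, so that Shp2 is removed in Sertoli cells and kept in the other cells of the testis. All mice were on the C57Bl/6 background, and neither the labels nor the methods say how many animals gave the RNA of an array.

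Sertoli cells line the seminiferous tubules and nurse the germ cells. In the fetal and newborn testis they are immature and still divide, and around puberty they stop dividing, tighten the barrier between them and change the set of genes they express. Cst9 encodes testatin, a relative of the cystatins, which block cysteine proteases, and it is known as one of the early genes of Sertoli cells in the fetal testis. Tesc encodes tescalcin, a calcium-binding protein of the EF-hand kind that was first found in the developing testis. Spata21, named for spermatogenesis, also encodes an EF-hand protein. Glb1l3 encodes a relative of the lysosomal enzyme beta-galactosidase, and 4930486L24Rik is known by a RIKEN cDNA number. A whole testis does not show which cell a transcript comes from, so the arrays do not place any of the 5 genes in Sertoli cells.

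The sequences before the annotated transcription starts are shown for the 5 genes, which were picked for being lower in SCSKO at D3 and 1W. Each line holds the 250 bases before the start from RefSeq (GRCm38.p6), 5′ to 3′ on the strand of the gene, and all 5 genes were found there by symbol. Capitals mark the letters ACAAAG, and in 1 gene the letters ACAATG, on either strand, which are forms of the core that SOX factors such as Sox8 and Sox9 of Sertoli cells can bind.
Cst9, chr2:148834897-148835146, plus strand: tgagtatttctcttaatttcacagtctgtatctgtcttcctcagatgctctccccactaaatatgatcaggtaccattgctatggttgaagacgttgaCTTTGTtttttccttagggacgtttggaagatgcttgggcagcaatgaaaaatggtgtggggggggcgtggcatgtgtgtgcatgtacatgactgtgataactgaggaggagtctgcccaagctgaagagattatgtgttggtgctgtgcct
Tesc, chr5:118027493-118027742, plus strand: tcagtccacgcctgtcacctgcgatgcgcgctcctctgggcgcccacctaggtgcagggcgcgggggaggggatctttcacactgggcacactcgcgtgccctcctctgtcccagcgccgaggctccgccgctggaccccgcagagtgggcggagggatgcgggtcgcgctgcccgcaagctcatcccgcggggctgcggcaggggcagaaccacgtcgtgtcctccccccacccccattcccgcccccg
Spata21, chr4:141088095-141088344, plus strand: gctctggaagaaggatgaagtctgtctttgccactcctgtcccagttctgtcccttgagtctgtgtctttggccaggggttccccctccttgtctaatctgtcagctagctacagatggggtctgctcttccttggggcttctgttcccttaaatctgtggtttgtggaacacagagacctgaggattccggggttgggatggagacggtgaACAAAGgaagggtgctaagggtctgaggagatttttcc
Glb1l3, chr9:26860824-26861073, minus strand: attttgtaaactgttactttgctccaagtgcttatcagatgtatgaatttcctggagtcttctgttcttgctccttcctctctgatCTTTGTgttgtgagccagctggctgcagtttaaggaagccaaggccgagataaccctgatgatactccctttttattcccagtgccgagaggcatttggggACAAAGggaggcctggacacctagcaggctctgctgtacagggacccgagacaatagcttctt
4930486L24Rik, chr13:60864417-60864666, minus strand: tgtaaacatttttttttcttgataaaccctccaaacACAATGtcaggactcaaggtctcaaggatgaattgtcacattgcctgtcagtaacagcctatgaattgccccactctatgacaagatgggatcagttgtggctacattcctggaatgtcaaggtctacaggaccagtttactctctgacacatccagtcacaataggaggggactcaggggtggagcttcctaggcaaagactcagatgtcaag
The letters ACAAAG were on one of the strands in the windows of Cst9 (first base at -152 from the start), Spata21 (-38) and Glb1l3 (-164 and -63), and in 16.5% of 32851 promoter windows of the same length. ACAATG was in the window of 4930486L24Rik (-214) and in 10.7% of all windows. The GATA core AGATAA was in the window of Glb1l3 (-117) and in 9.99% of all windows. None of the 5 windows held TGACG (core of the cyclic AMP response element, 17.8% of all windows), TGANTCA (AP-1, 6.75%), CCGGAAG (ETS, 6.91%), CACGTG (E-box, 6.02%) or the core promoter letters TATAAA (12.4%) on either strand. The window of Tesc held none of the letters searched and had 73.2% G and C, against 44.8% to 52.4% in the other genes and a median of 52.4% over all windows. No match overlapped another, and a match describes these letters only.

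Values below are log2 of the deposited intensity of a probe set, a group of probes for 1 transcript, and a difference is SCSKO minus Shp2f/f on this scale. A difference of -1 is therefore 2-fold lower in SCSKO. Since each genotype had 1 array at an age, animals gave no error and a single age no test. As a yardstick, the differences of all genes had a robust SD of 0.20, 0.14, 0.18 and 0.23 from E16.5 to 2W. Ptpn11, the gene of Shp2, was at 9.03 in Shp2f/f and 8.90 in SCSKO for E16.5, and at 9.05 and 8.72 for D3. It read 9.10 and 9.00 in the 1W pair and 8.48 and 8.55 in the 2W pair. Its 3 probe sets lay on different sides of 0 at every age, and neither the labels nor the methods give their position relative to the floxed part. So Ptpn11 did not check the genotype labels. The Gapdh control on the array, taken as 3' minus 5', was at 0.02 in Shp2f/f and 0.12 in SCSKO at D3, and 0.06 in both genotypes at 1W. In the 2W pair it was at 0.13 and 0.23, and at E16.5 0.12 in both. The same value for beta-actin (Actb) was 0.60 (Shp2f/f) and 0.65 (SCSKO) at 1W and 0.97 and 1.03 at 2W, higher at 2W in both genotypes, and 0.58 to 0.70 at E16.5 and D3. The part of RNA quality in the differences was not tested.

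**Figure D1:**
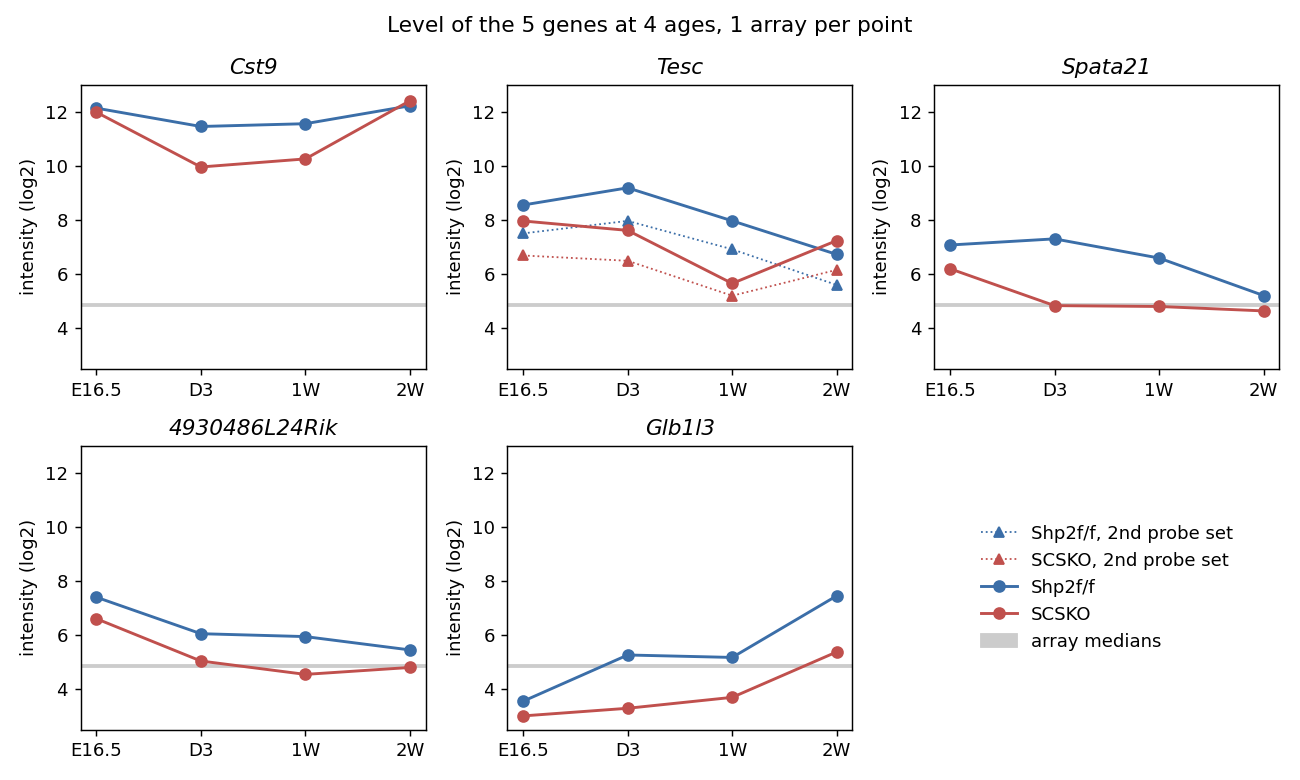
The log2 intensity of each gene (vertical axis) is plotted against age for Shp2f/f (blue) and SCSKO (red), 1 array per point, with the second probe set of Tesc as dotted lines and the range of the array medians as a grey band. The lines of the genotypes lie apart at D3 and 1W in all panels, meet or cross at 2W for Cst9 and Tesc, and stay apart at 2W for Glb1l3.

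Cst9 was a bright gene on every array, and SCSKO read 2-fold lower at D3 and 1W only. In Shp2f/f testes its log2 intensity was 12.14, 11.46, 11.57 and 12.23 from E16.5 to 2W. In SCSKO testes it was 11.99, 9.97, 10.26 and 12.41 at the same ages. Both genotypes thus had a trough at D3 and 1W, which spanned 1.70-fold between the highest and lowest age in Shp2f/f and 5.46-fold in SCSKO. On the linear scale the intensity at D3 was 2824 in Shp2f/f and 1000.4 in SCSKO, and at 2W it was 4802 and 5458. The differences were -0.15, -1.50, -1.30 and 0.18 from E16.5 to 2W, and those at E16.5 and 2W were smaller than the spread over genes. Because whole testes were used, fewer cells that express a gene and less of its RNA per cell cannot be told apart on these arrays. This holds for Cst9 and any other gene. In tissue sections the paper counted Wt1-positive Sertoli cells per tubule and reported no difference from controls, at ages its text does not give.

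Tesc had 2 probe sets, the only gene of the 5 with more than 1, and both showed the same course. The main probe set read 8.56, 9.20, 7.97 and 6.73 in Shp2f/f testes at E16.5, D3, 1W and 2W. In SCSKO testes it read 7.97, 7.62, 5.66 and 7.25. In Shp2f/f testes Tesc was highest at D3 and lower at each later age, whereas in SCSKO testes it was lowest at 1W and 1.59 higher at 2W. The differences were -0.59, -1.57, -2.31 and 0.51 from E16.5 to 2W, and that at 1W was the most negative of all 18194 genes. The second probe set read 7.51, 7.97, 6.92 and 5.60 in Shp2f/f testes and 6.69, 6.50, 5.21 and 6.16 in SCSKO testes. Its differences were -0.82, -1.47, -1.72 and 0.56 from E16.5 to 2W, on the same side of 0 as the main probe set at all 4 ages. The crossing at 2W was therefore seen with both probe sets. The name of the main probe set ends in s_at, which on these arrays means that its probes can also match transcripts of other genes, and the name of the second ends in a_at, for transcripts of 1 gene.

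Spata21 was the gene with the most negative difference of all genes at D3. In Shp2f/f testes it read 7.08, 7.31, 6.60 and 5.21 from E16.5 to 2W. In SCSKO testes it read 6.20, 4.84, 4.81 and 4.64. From D3 on, SCSKO thus stayed at a level that Shp2f/f came close to only at 2W. The medians of the arrays lay between 4.82 and 4.90, so SCSKO was near or under the median of all probe sets from D3 on. The differences were -0.88, -2.47, -1.79 and -0.57, with SCSKO lower at all 4 ages. At D3 SCSKO was 5.53-fold lower than Shp2f/f. The course of Spata21 in Shp2f/f was like that of Tesc, with a peak at D3 and the lowest value at 2W. Pearson's r between these genes over the 8 arrays was 0.83, which includes the D3 and 1W arrays on which both were chosen.

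4930486L24Rik was highest in the fetal testis in both genotypes. It read 7.40, 6.05, 5.94 and 5.45 from E16.5 to 2W in Shp2f/f testes. In SCSKO testes it read 6.60, 5.04, 4.54 and 4.80. SCSKO was lower at all 4 ages, with differences of -0.80, -1.01, -1.40 and -0.65, and had values below the array median at 1W and 2W. Of the 5 genes it was the one closest to the 2-fold line at D3. At E16.5 placental genes also differed between the arrays. Of these Tpbpb, which lies near this gene on chromosome 13, was at -3.32, Tpbpa at -4.05, Cts3 at -3.72 and Ctsm at -1.56, while Ctsq was at 1.18. At D3 and 1W these 5 genes lay between -0.54 and 0.14. The part of placental tissue in the value of 4930486L24Rik at E16.5 was not tested.

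Glb1l3 was the only gene of the 5 that was higher at each step from the fetal testis to 2W in SCSKO, and it was the one that was still at least 2-fold lower in SCSKO at 2W. In Shp2f/f testes it read 3.55, 5.26, 5.17 and 7.45 from E16.5 to 2W, a 14.9-fold range. In SCSKO testes it read 3.01, 3.29, 3.69 and 5.37, a 5.16-fold range. The SCSKO array at 2W therefore read close to the Shp2f/f arrays at D3 and 1W. The differences were -0.54, -1.97, -1.48 and -2.08. Both arrays at E16.5, and the SCSKO arrays at D3 and 1W, were below the array medians, where a log2 difference is least certain. When 16 was added to every value before the logarithm, which damps dim values, the difference of Glb1l3 was -0.21, -1.08, -0.85 and -1.73 from E16.5 to 2W.

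**Figure D2:**
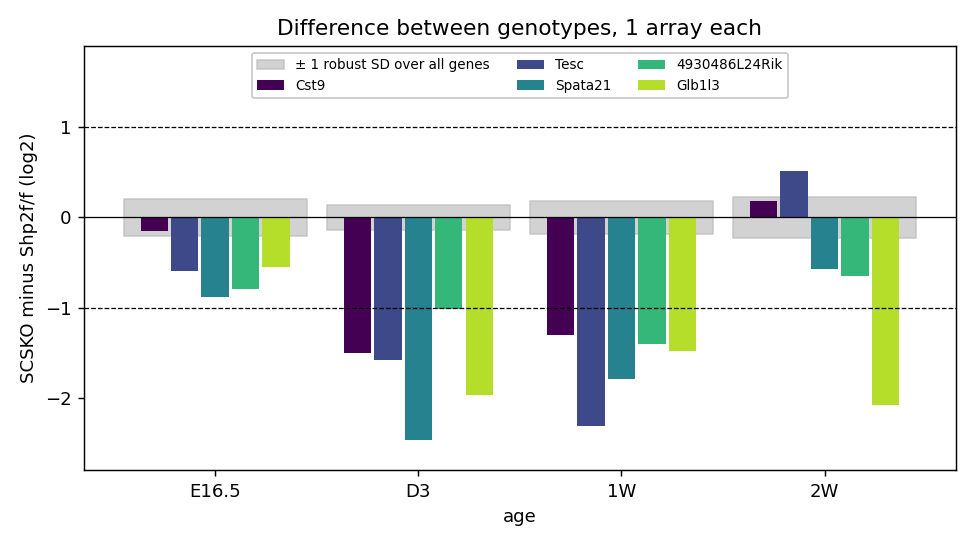
Bars give the log2 difference, SCSKO minus Shp2f/f, of each gene at each age, from 1 array each, with dashed lines at 2-fold and a grey band of 1 robust SD over all genes. All 5 bars lie below -1 at D3 and 1W, none does at E16.5, and only that of Glb1l3 does at 2W, where Tesc lies at 0.51 and Cst9 at 0.18.

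At D3, 0.066% of all genes were at least 2-fold lower in SCSKO, and at 1W 0.132%, which gives the background for the rule itself and is not evidence for the 5 genes. At E16.5, none of the 5 genes was 2-fold lower, against 0.335% of all genes. All 5 were below 0, as were 50.5% of all genes (median -0.59, against -0.00 over all genes). At 2W, 1 of the 5 was 2-fold lower, against 1.09% of all genes. At that age 3 were below 0 (median -0.57), as were 50.1% of all genes. Outside the line came Sh3gl3, an endophilin, with -0.96 at D3 and -0.91 at 1W, and Aldh3a1, an aldehyde dehydrogenase, with -1.45 and -0.90. Sox8, a transcription factor of Sertoli cells, lay at -0.82 and -0.83. Tubb3, a beta-tubulin, was at -0.80 and -1.03, and Car3, a carbonic anhydrase, at -0.85 and -0.80. The last gene inside the line was 4930486L24Rik with -1.01 and -1.40, so the gap between the sides of the line was small. With 16 added to every value, 4930486L24Rik was at -0.75 and -0.98 and, like Glb1l3, no longer 2-fold lower at both ages. After quantile normalization 4930486L24Rik was at -0.999 at D3, just short of the line. With a line at 1.5-fold, 27 genes were lower at both ages, and with a line at 3-fold only Spata21 was.

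**Figure D3:**
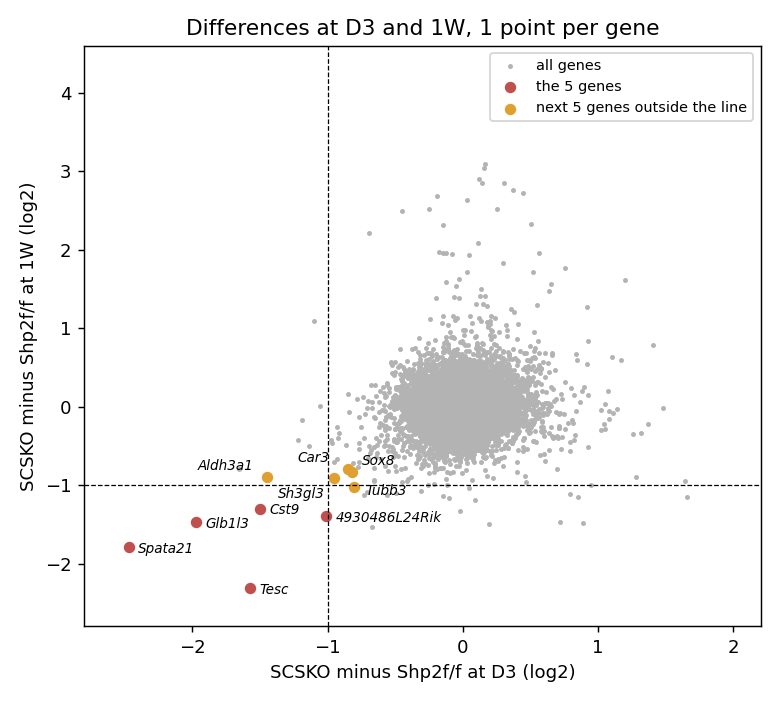
Each point is a gene, with its log2 difference at D3 on the horizontal axis and at 1W on the vertical axis, and dashed lines mark 2-fold lower in SCSKO. The 5 genes (red) lie in the lower left corner, which defines them, and the next 5 genes (orange) lie just outside it.

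Whether the genotypes also differed on the arrays that had not been used to choose the genes was tested with limma on the 4 arrays of E16.5 and 2W, with age as a block. No gene of the 5 passed, and no gene at all did: 0.0% of 18194 genes were called after Benjamini-Hochberg adjustment, with 726 at an unadjusted p under 0.05. The methods' t-test on the same arrays also called 0 genes after adjustment, with 452 before it. The difference over the 2 ages was -0.72 ± 0.13 (SE, log2) for 4930486L24Rik, -0.72 ± 0.14 for Spata21 and -1.31 ± 0.37 for Glb1l3, each with SCSKO lower at both ages, and limma's adjusted p was 0.94 for all 3 (unadjusted 0.0031, 0.0047 and 0.019). It was 0.02 ± 0.15 for Cst9 and -0.04 ± 0.28 for Tesc, with SCSKO lower at E16.5 and higher at 2W, and an adjusted p of 0.99. The value for Glb1l3 rested mostly on 2W, since it was -2.08 there and -0.54 at E16.5. The fit had 1 residual degree of freedom, so a p above the threshold does not show that the genotypes were alike.

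The course over age was tested on all 8 arrays with genotype as a block, by limma for each step between ages. The 2 arrays of an age were of different genotype, so a difference that changes with age counts as error here, and the low SCSKO values at D3 and 1W that chose the genes enter these steps. From E16.5 to D3, 4930486L24Rik fell by 1.46 ± 0.18 (SE, log2), with an adjusted p of 0.0034, in both genotypes (-1.35 in Shp2f/f and -1.56 in SCSKO). In the same step 9.73% of all genes were lower and 13.2% higher. Cst9 changed by -1.35 ± 0.41 (adjusted p = 0.058), Glb1l3 by 1.00 ± 0.35 (0.086), Spata21 by -0.57 ± 0.42 (0.39) and Tesc by 0.14 ± 0.59 (0.90), none of which passed in limma. Without the E16.5 Shp2f/f array the step of Glb1l3 was 0.35, and without the E16.5 SCSKO array it was 1.64 and passed (adjusted p = 0.011). From D3 to 1W no gene of the 5 passed, against 0.165% of all genes, and the largest step was that of Tesc, -1.59 ± 0.59 with an adjusted p of 0.33 by limma. It was -2.47 without the 1W Shp2f/f array and -0.71 without the 1W SCSKO array. From 1W to 2W Glb1l3 rose by 1.98 ± 0.35 (adjusted p = 0.022), in both genotypes (2.28 in Shp2f/f and 1.68 in SCSKO), where 4.47% of all genes were higher. The 3' minus 5' value of Actb was also higher at 2W than at 1W, and its part in this step was not tested. Without the 1W Shp2f/f array that adjusted p was 0.12, without the 1W SCSKO array 0.14 and without the 2W Shp2f/f array 0.054 by limma. Cst9 was 1.41 ± 0.41 higher at 2W than at 1W (adjusted p = 0.084), from 0.66 in Shp2f/f and 2.15 in SCSKO. Tesc moved in opposite directions in this step, -1.24 in Shp2f/f and 1.59 in SCSKO. Without the genotype block neither call held, with an adjusted p of 0.087 for 4930486L24Rik and 0.19 for Glb1l3 in limma.

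Genes of a Sertoli cell list, which did not hold Cst9, did not show decreases of this size at D3 and 1W. Of 36 measured Sertoli cell genes, none was 2-fold lower in SCSKO at either age, and the list medians were -0.09 at D3 and -0.27 at 1W, against medians of -0.00 and -0.02 over all genes. No gene of the list was as low as any of the 5 at these ages. This follows in part from how the 5 were chosen, since they were all the genes 2-fold lower at both ages. Below 0 were 24 of the 36 genes at D3 and 28 at 1W (50.8% and 53.8% of all genes were). Wt1, a transcription factor that is kept in Sertoli cells at all ages, was at 0.04 at D3 and 0.23 at 1W, and Gata4, another, was at 0.10 and -0.22. Sox9 was at 0.25 and 0.07, and Rhox5 at 0.26 and 0.24. Amh was at -0.31 and -0.43, and Fshr, the receptor of follicle-stimulating hormone, at -0.29 and -0.57. The lowest of the list at D3 was Defb19, a beta-defensin of Sertoli cells, at -0.96, and at 1W it was Sox8, at -0.83. At 2W, 29 of 36 genes were above 0, while 50.1% of all genes were below 0. Amh (1.16), Dhh (1.02) and Rhox5 (2.02) were at least 2-fold higher at 2W, and the list median was 0.29. Against that median Cst9 lay -0.11 and Tesc 0.22 away at 2W, whereas Spata21 lay -0.86, 4930486L24Rik -0.94 and Glb1l3 -2.37 away. Of the 36 genes, 22 were below 0 at D3 and at 1W (28.7% of all genes were), and 17 were also above 0 at 2W (11.8% of all genes), the order of signs that Cst9 and Tesc had.

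**Figure D4:**
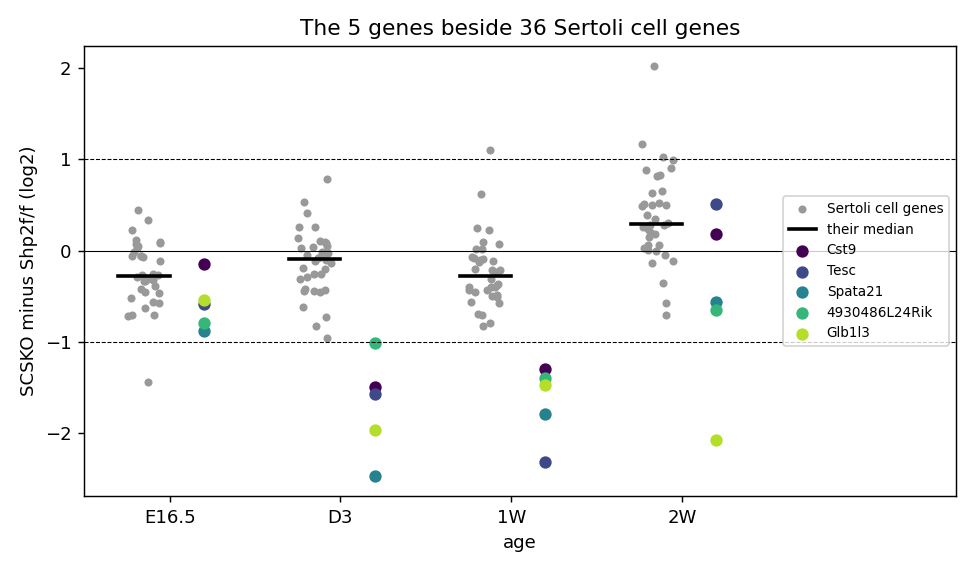
Grey points are the log2 differences of 36 Sertoli cell genes at each age, with their median as a black line, and coloured points are the 5 genes, from 1 array per genotype and age. The 5 genes lie below the grey points at D3 and 1W, and at 2W Cst9 and Tesc lie among them while Glb1l3 lies below them.

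Lists by the age of the cell shared most of their genes with the 36 Sertoli genes, so their values are not independent of that list. In them, 18 genes of fetal and neonatal Sertoli cells had medians of -0.31, -0.08, -0.22 and 0.25 from E16.5 to 2W. The medians of 14 genes of mature Sertoli cells were -0.06, 0.05, -0.21 and 0.29. None of these genes was 2-fold lower at any age. Of the 36 Sertoli genes, Serpina5, a protease inhibitor in neither of these lists, was at -1.44 at E16.5, and Krt18, a keratin, at 1.10 at 1W. Among 26 ERK response genes, 20 were below 0 at D3 and 20 at 1W (50.8% and 53.8% of all genes were). The list medians were -0.26 and -0.18. The early genes Fos (-1.19) and Fosb (-1.65) were 2-fold lower at D3, against 0.066% of all genes, and none was at 1W. Fosb was dim, and only the D3 Shp2f/f array (5.80) read above the array medians. The D3 SCSKO array read 4.15. Dusp6, a phosphatase that ERK itself induces, was at -0.68 at D3 and -0.56 at 1W, and Egr2, a transcription factor of the early response, at -0.86 and -0.49. Of 19 genes that FSH or androgen controls, 13 were below 0 at D3 and 13 at 1W, beside the same shares of all genes. The medians were -0.02 and -0.10, with Fosb, the same gene as in the ERK list, 2-fold lower at D3 and Tubb3 at 1W.

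Listed relatives of the 5 genes, with the 5 themselves left out, were not 2-fold lower at D3 or 1W. That none was so at both ages follows from the rule, which took every such gene. Tesc and Spata21, both of the EF-hand kind, are relatives of each other and were left out of the counts. Of 14 other cystatin genes none was 2-fold apart at any age, and the medians lay between -0.06 and 0.21. Cst12, another cystatin of Sertoli cells that lies near Cst9, was at 0.44, -0.19, -0.49 and 0.06 from E16.5 to 2W. Cst3, the widespread cystatin C, was between -0.12 and 0.09. Among 14 other beta-galactosidase and lysosomal glycosidase genes none was 2-fold lower at any age, and 1 was 2-fold higher at 2W. Glb1, the lysosomal beta-galactosidase, lay between -0.12 and 0.07 and Glb1l between -0.02 and 0.05. Glb1l2, the neighbour of Glb1l3, was at 0.34 at D3 and 0.51 at 1W, above 0 where Glb1l3 was below, and at -0.61 at 2W. The 13 other genes of EF-hand proteins and tescalcin partners had none 2-fold apart at any age, and 16 other Spata genes had 1, which was lower at 2W. Of 21 cathepsin and propeptide inhibitor genes none was 2-fold apart at D3, 1W or 2W, but at E16.5 4 were 2-fold lower and 1 was 2-fold higher. Ctla2b, beside 4930486L24Rik, was at 0.08 at D3 and -0.18 at 1W, and Ctla2a at 0.60 and -0.08.

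Genes next to the 5 on their chromosomes were not lower as a group. The nearest 2 measured genes on each side made 20 neighbours. Of these, 9 were below 0 at D3 and 10 at 1W, against 50.8% and 53.8% of all genes. Their differences ran from -0.54 to 0.34 at D3 and from -0.49 to 0.59 at 1W, and none was 2-fold lower. For Tesc the neighbours were Nos1, Fbxo21, Fbxw8 and Hrk, all between -0.11 and 0.11 at D3 and 1W.

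Genes of other cells moved at the same ages, and their part in the values of the 5 genes was not tested. At D3, 15 of 18 germ cell genes were above 0 with a median of 0.63, while 50.8% of all genes were below 0. The summed intensity of the germ cell genes was 831 in Shp2f/f and 1359 in SCSKO. Of these, Stra8 (1.40), Uchl1 (1.08), Dazl (1.05), Sycp3 (1.05), Piwil2 (1.02) and Gtsf1 (1.02) were 2-fold higher. At E16.5 the germ cell median was -0.57, with summed intensities of 8563 and 5354, and at 1W it was -0.16. At 1W, 4 of 10 genes of the epididymis and ducts were 2-fold higher, with a summed intensity of 582 in Shp2f/f and 2963 in SCSKO. They were Spink8 (2.76), Cldn8 (2.33), Cdh16 (1.96) and Pax8 (1.16). Leydig cell genes had medians of 0.09 at D3 and -0.26 at 1W, peritubular genes of -0.17 and 0.01, endothelial genes of 0.04 and -0.23, macrophage genes of -0.03 and -0.21, and genes of the serous lining of -0.25 and 0.25. At 2W, where Glb1l3 was 2-fold lower, all 6 genes of the serous lining were 2-fold lower (summed intensity 1311 in Shp2f/f and 439 in SCSKO), as were 5 of 10 peritubular genes (27017 and 16634) and 1 of 9 endothelial genes. The Leydig cell median at 2W was 0.50, with 2 of 8 genes 2-fold higher, and germ cell genes were at -0.05.

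The 5 genes were not one pattern over the 8 arrays. Pearson's r between them ran from -0.23 for Glb1l3 and 4930486L24Rik to 0.85 for Spata21 and 4930486L24Rik, over 10 pairs. Tesc, Spata21 and 4930486L24Rik went together (r of 0.73 to 0.85), and Cst9 and Glb1l3 went with none of the others at more than 0.48. The arrays share ages and genotypes, and the low SCSKO values at D3 and 1W that chose the genes enter r. These values of r are therefore descriptions. The genes most like Cst9 were Ndufab1 (0.966), a subunit of the respiratory chain, Defb19 (0.966), Tle6 (0.936) and Rrs1 (0.933). Of these only Defb19 spanned a wide range, from 9.80 to 11.67, and the most negative difference of Ndufab1 was -0.13, at 1W. The genes most like Tesc were Eef1a2 (0.964), Rnf19b (0.953), Kcnmb4os2 (0.939) and Armc2 (0.916), with differences no lower than -0.35 at any age. Those most like Spata21 were 1110032F04Rik (0.939), Islr2 (0.939), Rnf19b (0.929) and Kcnmb4os2 (0.911), and Islr2, a membrane protein with leucine-rich repeats, was at -1.22 at D3 and -0.42 at 1W. Those most like Glb1l3 were Sox6os (0.983), Wdr20 (0.976), Atp5e (0.975) and Gzmm (0.951). Those most like 4930486L24Rik were Car6 (0.978), Ran (0.970), Slc38a2 (0.967) and Mex3c (0.966), and Car6, a carbonic anhydrase, was at -0.63 at D3 and -0.49 at 1W.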

How the data were processed

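Gene expression was measured in whole testes on 8 arrays. The authors deposited 1 table of intensity values on a linear scale for 45101 probe sets, and the submitters' processing notes name RMA, with no version. Its background, normalization and chip definition steps are not stated in the labels or methods. Values ran from 3.05 to 18038 and array medians from 28.3 to 29.9. RMA can shrink the differences of dim genes. The labels give the RNeasy Mini Kit for RNA, whereas the methods of the paper give TRIzol.

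Log2 was taken with no offset and no filter. Names came from the platform annotation, in which 34958 probe sets had 1 symbol, 932 several and 9211 none, and only those with 1 symbol stood for genes. Of several probe sets, that with the highest mean log2 value was used. Coordinates are given only for the RefSeq promoter windows (GRCm38.p6), and the same reference set the order of neighbours. The 5 genes, the gene lists and the tests were chosen with earlier results of these data known. Named genes were the 5 genes with their probe sets, the 5 genes just outside the 2-fold line, the 4 most alike by Pearson's r among genes at or above the array median on at least 1 array, relatives, Ptpn11, the Sertoli genes Amh, Sox9, Wt1, Gata4, Cst12, Rhox5 and Fshr, and list genes that were 2-fold apart at some age or among the 4 largest at D3 or 1W. Neighbours, promoters and genes of other tissues were chosen after values were seen.

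Tests were limma (lmFit, eBayes), two-sided, adjusted by Benjamini-Hochberg at 0.05 over all 18194 genes. They were tested on simulated data. With 1 array per genotype and age, p-values measure only the spread left after the age or genotype block. The number of arrays limits the precision. Alternatives were the probe set, an offset of 16, 3 further normalizations, a filter on dim genes, an intensity trend, the blocks, the methods' t-test, the fold line and each array left out. R 4.3.3, limma 3.58.1, Python 3.11.15, numpy 2.4.6, pandas 2.3.3, scipy 1.17.1 and matplotlib 3.10.9 were used.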

Additional observations from a re-analysis of the deposited data

Results flagged for a closer look

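At 2W, 2 of the 5 genes lay on the other side of 0 from D3 and 1W. Cst9 differed by 0.18 at 2W after -1.50 at D3 and -1.30 at 1W, and Tesc by 0.51 after -1.57 and -2.31. The change with age was not tested, since there was 1 array per genotype and age. The value of Cst9 at 2W was smaller than the spread over all genes at that age (0.23), and both probe sets of Tesc lay above 0 at 2W.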

How the results depend on the processing

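Adding 16 to every value moved the difference of Tesc at 1W to -2.01, of Spata21 to -1.97 at D3 and -1.36 at 1W, of Glb1l3 to -0.21, -1.08, -0.85 and -1.73 from E16.5 to 2W, and of 4930486L24Rik to -0.75 at D3 and -0.98 at 1W. As the mean of its probe sets Tesc was at -2.02 at 1W, and its second probe set gave -1.72 there and -0.82 at E16.5. Another 92 such values moved by less than the spread over genes. Among them 4930486L24Rik at D3 was -0.999 after quantile normalization, just short of 2-fold. A line at 1.5-fold gave 27 genes lower at D3 and 1W and a line at 3-fold 1. At 1.5-fold, 4 Sertoli genes were lower at D3 and 4 at 1W, and 5 and 1 ERK response genes. The test at E16.5 and 2W called 0 genes in every alternative run. Its difference for Tesc was 0.021 after quantile normalization, and that for Cst9 was -0.014 after median centring and -0.69 on all 8 arrays, which include those of the rule. For the steps between ages, an intensity trend of the variance gave 175 genes in place of 30 from D3 to 1W. Without each array in turn, 925 to 4826 genes were called from E16.5 to D3, 4 to 115 from D3 to 1W and 149 to 1943 from 1W to 2W. The step of Tesc from 1W to 2W was -0.0042 as the mean of its probe sets. Without each array in turn it ran from -0.83 to 1.17, that of 4930486L24Rik in the same step from -0.41 to 0.17, and those from D3 to 1W from -0.34 to 0.74 for Cst9, -1.06 to 0.32 for Spata21 and -0.15 to 0.46 for Glb1l3. From E16.5 to D3 they ran from -0.24 to 0.53 for Tesc and -1.26 to 0.13 for Spata21. The adjusted p of 4930486L24Rik from E16.5 to D3 ran from 0.0015 to 0.087 over all alternatives of limma, and that of Glb1l3 from 1W to 2W from 0.0093 to 0.19. Cst9 passed from E16.5 to D3 (adjusted p = 0.031) and from 1W to 2W (0.046) with the intensity trend in limma. Both steps hold a low SCSKO value on which Cst9 was chosen. They were -0.68 and 0.66 in Shp2f/f and -2.03 and 2.15 in SCSKO. The step of Cst9 from 1W to 2W was 1.99 without the 2W Shp2f/f array and 0.82 without the 2W SCSKO array. Age paired the genotypes in the test at E16.5 and 2W, and the labels carry no replicate numbers for another pairing. Dim values of Glb1l3, and of Spata21 and 4930486L24Rik in SCSKO, limit how exact their differences are.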
